A study of Rattus norvegicus with 77 samples.

Results

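Ubiquitin-conjugating enzymes (E2s) and ubiquitin-specific proteases, the largest family of deubiquitinases, were examined in the sperm RNA of rats given 2,5-hexanedione (HD), a toxicant of Sertoli cell microtubules, or plain water. Members were taken from the deposited array values by name: every gene whose symbol started with Ube2, or with Usp followed by a digit, on a probe set (the probes of one transcript) with a single platform symbol, and the brightest probe set of each gene was kept. This gave 67 genes on 71 probe sets, 27 of them named Ube2 and 40 named Usp, of 14506 genes and 29214 probe sets in all. Adult male Fischer 344 rats of the first group drank 0.33% HD for 3 months (HD, n = 19 arrays), and their controls drank water (water, n = 20). The HD-recovery rats (n = 20) drank HD for the same 3 months and then water for 3 months more, and the water-recovery rats (n = 18) drank water throughout. Each array held the RNA of the cauda epididymal sperm of 1 rat, collected after a short wash in a buffer that lyses somatic cells. The paper reports that microscopy showed no somatic cells and that peaks of ribosomal RNA were absent. A value still describes the sperm and any other cells that remained.

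Ubiquitin is passed from an activating enzyme (E1) to an E2, and from there, mostly with the help of a ligase (E3), to a protein or to a growing ubiquitin chain. Deubiquitinases remove it again. Chains of differing linkage send proteins to the proteasome, to the endosome or to DNA repair complexes. Spermatids use this system heavily, since they replace histones and discard most of their cytoplasm while transcription stops. Mature sperm make almost no new RNA, so that the transcripts they carry were left from earlier stages. Of the genes in the set, Usp6nl shares the name only, as it is a GTPase-activating protein of Rab5 and no protease, and it was kept because the naming rule takes it. Ube2m, Ube2r2, Usp22 and Usp46 had no probe set of their own under that rule and were not analysed here.

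The values are log2 intensities, from 2.51 to 14.63, and array medians ran from 6.51 to 6.78. Genes for which sperm and spermatids are known (27 measured, protamines and outer dense fibre proteins among them) averaged 8.49 to 10.91 on arrays labelled HD, 8.45 to 9.82 on arrays labelled water, 8.58 to 9.76 on HD-recovery arrays and 8.71 to 9.48 on water-recovery arrays, and so were bright in every group. Leukocyte and macrophage markers (27 measured) averaged 7.23 to 7.96 on HD arrays, 7.30 to 7.98 on water arrays, 7.23 to 8.21 on HD-recovery arrays and 7.30 to 8.28 on water-recovery arrays. Sertoli cell markers lay between 6.56 and 7.32 in all, near the array medians. Epididymal epithelium markers averaged 7.02 to 7.85 on HD arrays and 7.08 to 7.86 on water arrays. They averaged 7.13 to 9.00 on HD-recovery arrays and 7.13 to 7.60 on water-recovery arrays. The 9.00 was that of HD-recovery replicate 19, which was not among the arrays that stood apart in what follows. By a rule on each array's correlation with its own group, 11 arrays stood apart (3 HD, 3 water, 3 HD-recovery and 2 water-recovery). HD replicate 5 did so most, with a median correlation of 0.83 with its group, a sperm marker mean of 10.91 and a mean over the 67 genes of 8.09, against a median of 7.16 for HD arrays. It held the highest of all 77 values for 33 of the 67 genes and the lowest for 5. Results are therefore given with all arrays, and again without those that stood apart. The rule used the same values that were then tested, and leaving out arrays unlike their group narrows the spread within groups. Counts and q-values without these arrays are thus a description only. In bulk RNA, fewer cells of a type and less RNA per cell cannot be told apart.

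Arrays labelled HD did not differ from arrays labelled water in any of the 67 genes at q under 0.05, against 138 probe sets of the whole array (0.472%). Log2 fold changes below take the water arrays, by label, from the HD arrays. Their direction is not settled: of 70 transcripts on the published list of altered transcripts that could be matched by symbol, 69 carried the opposite sign here, and none of the 67 genes was on that list. If the labels HD and water were exchanged, every value of this comparison would change its sign and keep its size and p. The smallest q among the 67 was 0.140. At an unadjusted p under 0.05, 5 of the 67 had a positive log2 fold change, against 3.4% of all probe sets, and 4 had a negative one, against 4.91%. The 67 genes had a median of 0.02 and all probe sets one of 0.01, with 40 of the 67 above 0, against 56.3% of all probe sets. The 9 genes at this unadjusted p were the E2s Ube2d2b, Ube2e3, Ube2j1, Ube2v2, Ube2k and Ube2w and the deubiquitinases Usp30, Usp28 and Usp10.

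The E2s that start chains or work with many ligases (9 measured) ranged from a log2 fold change of −0.47 to 0.45, with 6 above 0. Ube2d2b, a close relative of Ube2d2 known from rat testis, had the smallest p of the 67 genes. Its log2 intensity was 8.86 at the lowest, 9.71 at the median and 11.21 at the highest on HD arrays, and 8.69, 9.26 and 9.81 on water arrays. The groups overlapped, but 16 of 19 HD arrays lay above the water median. The log2 fold change was 0.45 (SE 0.14, 1.36-fold, p = 0.0019, q = 0.140). Since Ube2d2b, Ube2d2 and Ube2d3 have very similar sequences, probes may be shared among their transcripts, and which of them gave the signal is uncertain. Ube2d2 itself had a log2 fold change of 0.17 (p = 0.37; 0.07 without HD replicate 5) and Ube2d3 of 0.00 (p = 1.00). Ube2e3, an E2 that anchors a ubiquitin on its substrate for others to extend, had 6.19, 6.55 and 6.98 on HD arrays and 5.85, 6.37 and 6.70 on water arrays. Here too 16 of 19 HD arrays lay above the water median, and the log2 fold change was 0.18 (p = 0.0038, q = 0.197). Ube2w, which attaches ubiquitin to the amino terminus of proteins, lay on the other side, with 5.94, 6.78 and 8.20 on HD arrays and 6.21, 7.24 and 8.26 on water arrays. Its range was almost the same in both groups, with 4 of 19 HD arrays above the water median, and its log2 fold change was −0.47 (SE 0.20, p = 0.024, q = 0.463). Ube2l3, which serves ligases of the HECT and RBR types, had a log2 fold change of −0.09 (p = 0.44).

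Of the 8 E2s and E2 partners that extend chains, Ube2k had the lowest log2 fold change of the whole set by the labels as given (with HD and water exchanged, 0.64, the highest). Ube2k builds the chains that send proteins to the proteasome, and can do so without a ligase. Its log2 intensity was 9.17 at the lowest, 10.27 at the median and 11.62 at the highest on HD arrays, and 9.70, 11.13 and 12.02 on water arrays. Only 5 of 19 HD arrays lay above the water median, and the log2 fold change was −0.64 (SE 0.20, 1.56-fold, p = 0.0028, q = 0.171). Ube2n and its partners Ube2v1 and Ube2v2, inactive E2 variants, together build the chains used in DNA damage tolerance and in signalling. Ube2n had a log2 fold change of −0.26 (p = 0.11), Ube2v1 of 0.05 (p = 0.41) and Ube2v2 of 0.19 (p = 0.043, q = 0.572). Ube2v2 was measured at 4.03, 4.54 and 5.71 on HD arrays and at 4.14, 4.34 and 4.76 on water arrays, so that its highest HD value stood outside the water range. Ube2s and Ube2c, the E2s of the anaphase-promoting complex, had log2 fold changes of 0.23 (p = 0.091) and 0.02 (p = 0.83).

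The E2s of the endoplasmic reticulum serve the disposal of misfolded proteins there. Ube2j1 is anchored in that membrane, and male mice that lack it are infertile. It was measured at 8.33, 9.37 and 10.93 (lowest, median and highest) on HD arrays and at 8.11, 9.09 and 9.91 on water arrays. The ranges overlapped, with 15 of 19 HD arrays above the water median, and the log2 fold change was 0.47 (SE 0.19, p = 0.016, q = 0.384). The related Ube2j2 had a log2 fold change of −0.13 (p = 0.11). The E2s of ubiquitin-like proteins gave 0.13 for Ube2f, which carries Nedd8, 0.02 for Ube2l6, which carries Isg15, and −0.18 for Ube2z, which receives ubiquitin or Fat10 from Uba6. Neither these nor the E2s of DNA repair and chromatin reached an unadjusted p of 0.05. Ube2b, whose loss makes male mice infertile, and its close relative on the X chromosome, Ube2a, had log2 fold changes of 0.01 and −0.02, and Ube2t, the E2 of the Fanconi anaemia pathway, of −0.02.

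The deubiquitinases had log2 fold changes between −0.19 and 0.33. Usp30, a protease of the outer mitochondrial membrane that counters mitophagy, had 7.42, 7.69 and 9.48 on HD arrays and 7.09, 7.62 and 8.22 on water arrays (log2 fold change 0.25, p = 0.044, 14 of 19 HD arrays above the water median). Of 13 deubiquitinases of DNA damage and chromatin, 9 lay above 0, and the 2 with an unadjusted p under 0.05 lay below it. Usp28, which stabilises Myc, had 7.02, 7.22 and 7.46 on HD arrays and 7.06, 7.33 and 7.50 on water arrays, with 3 of 19 HD arrays above the water median (log2 fold change −0.12, p = 0.0083, q = 0.286). Usp10, which acts on p53 and binds the stress granule protein G3bp1, had 6.03, 6.50 and 7.33 on HD arrays and 6.40, 6.75 and 7.09 on water arrays, with 2 of 19 above the water median (log2 fold change −0.19, p = 0.032). Usp7, which protects Mdm2 and p53, had 0.20 (p = 0.19), Usp16, a histone H2A protease, 0.25 (p = 0.058), and Usp1, which acts on the Fanconi protein Fancd2, 0.18 (p = 0.26). Of the deubiquitinases of the germ line, Usp2 is needed for full fertility of male mice, and Usp26 is an X-linked gene of the testis. Usp2 had 7.10, 7.64 and 10.85 on HD arrays and 7.07, 7.46 and 8.23 on water arrays (log2 fold change 0.33, p = 0.094). The highest HD value was that of replicate 5 and lay far above all water arrays. Usp26 had 5.06, 5.76 and 6.10 on HD arrays and 5.06, 5.58 and 5.98 on water arrays (log2 fold change 0.17, p = 0.050), and Usp42, also expressed in mouse testis, had a log2 fold change of 0.15 (p = 0.20). The deubiquitinases of the proteasome and of free chains, Usp14, Usp5 and Usp13, lay at −0.01, −0.04 and −0.02. Of the endosomal and membrane group of 13, Usp15 had 0.29 (p = 0.13), Usp9x −0.10 (p = 0.55) and Usp8, a protease of endosomes that is found at the acrosome of mouse spermatids, 0.06 (p = 0.49). Usp18, which removes Isg15, had 0.08 (p = 0.21).

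**Figure D1:**
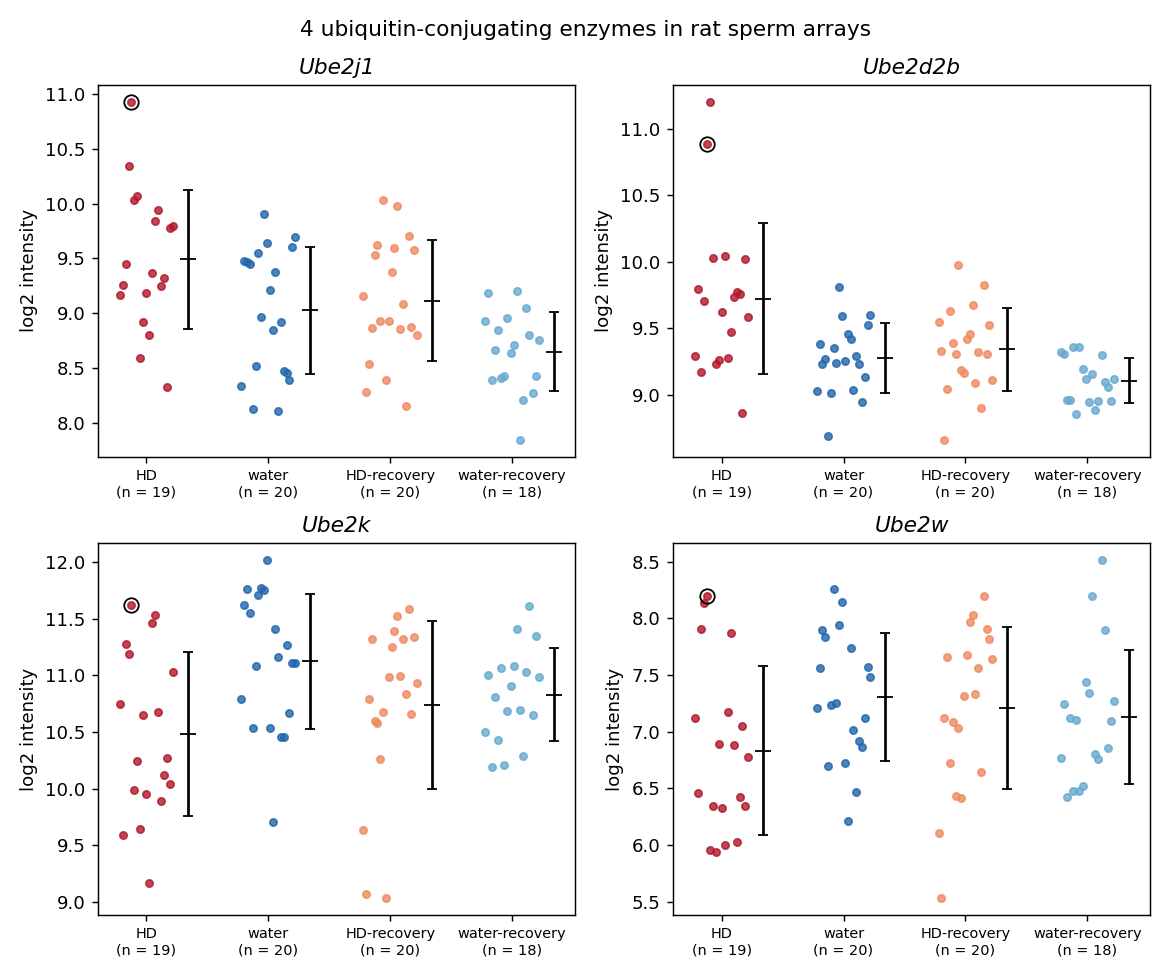
Log2 intensity of Ube2j1, Ube2d2b, Ube2k and Ube2w on each array (points), by group in the order HD, water, HD-recovery and water-recovery, with the mean and SD of each group as bars and HD replicate 5 ringed. All groups overlap in all of these genes, and HD arrays have a median of 10.27 for Ube2k, against 11.13 on water arrays.

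Marker means stand beside these values as follows. The sperm marker mean was 9.37 ± 0.51 on HD arrays and 9.19 ± 0.39 on water arrays (SD), with 19 of 27 sperm markers above 0 in this comparison and a median log2 fold change of 0.24. The only sperm marker at q under 0.05 lay below 0. The leukocyte and macrophage mean was 7.43 ± 0.21 on HD arrays and 7.66 ± 0.18 on water arrays, with 22 of 27 markers below 0 and a median of −0.18. The erythroid mean was 7.32 ± 0.27 on HD arrays and 7.67 ± 0.24 on water arrays, and 1 of 7 erythroid markers passed q under 0.05, below 0. With the leukocyte mean as a covariate, the log2 fold change of Ube2k was −0.06, that of Ube2w 0.12 and that of Ube2j1 0.71 (q = 0.045). With the sperm mean instead, Ube2k had −0.77 (q = 0.0055), Ube2w −0.61 (q = 0.029), Ube2d2b 0.31 (q = 0.023) and Ube2j1 0.24 (q = 0.026). The part of either cell type in these results was not tested beyond this.

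Without the 11 arrays that stood apart (16 HD and 17 water arrays left here), 10 of the 67 genes differed at q under 0.05, or 14.9%, the same share as over all probe sets (14.9%). Ube2d2b (log2 fold change 0.47) and Usp26 (0.20) were higher in these HD arrays. Ube2k (−0.86), Ube2w (−0.72), Ube2z (−0.46), Ube2g1 (−0.41), Usp9x (−0.39), Usp10 (−0.31), Usp4 (−0.17) and Usp28 (−0.12) were lower. Ube2j1 was not among them. Usp26 was dim, with a mean log2 intensity of 5.60 over all arrays, below every array median (6.51 to 6.78). With Benjamini-Hochberg adjustment of the same fit, 7 of the 67 passed (10.4%), 1 of them higher, against 7.59% of all probe sets. The HD arrays left out were replicates 3, 4 and 5. They had the highest means over the 67 genes of their group, 7.47, 7.55 and 8.09 (group mean 7.25). Their leukocyte means were 7.65, 7.73 and 7.29 (group mean 7.43). The water arrays left out, replicates 9, 12 and 20, had 7.39, 7.01 and 7.20 over the 67 genes (group mean 7.22). Later comparisons with these groups leave out the same arrays. The part of this choice in the counts was not tested. Without HD replicate 5 alone, no member passed, with a smallest q of 0.0549 (Ube2k, −0.71), and the log2 fold changes of Usp30 and Ube2v2 were 0.16 and 0.13. Other values rested on this array as well. Without it the log2 fold change was 0.17 for Usp2, 0.15 for Usp16, 0.13 for Usp15, 0.06 for Usp7, 0.05 for Usp42, 0.04 for Usp1, 0.14 for Ube2s and 0.05 for Ube2f, and no p among these was under 0.05.

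The same comparison 3 months after exposure asked whether any difference was left. No gene of the 67 differed between HD-recovery and water-recovery arrays at q under 0.05, and no probe set of the array did (0%). At an unadjusted p under 0.05, however, 9 of the 67 had a positive log2 fold change, against 2.86% of all probe sets, and none had a negative one, against 1.65%. The median of the 67 was 0.03 and that of all probe sets −0.01, and 49 of the 67 lay above 0, against 46.4% of all probe sets. The smallest q was 0.720.

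Ube2j1 had the smallest p of the 67 here. It was measured at 8.16, 9.01 and 10.04 (lowest, median and highest) on HD-recovery arrays and at 7.85, 8.68 and 9.20 on water-recovery arrays, with 16 of 20 HD-recovery arrays above the water-recovery median. The log2 fold change was 0.47 (SE 0.15, p = 0.0026, q = 0.720), the same size as at the end of exposure, where its sign would be opposite with the labels HD and water exchanged. Ube2g2, an E2 that works with ligases of the endoplasmic reticulum, had 6.81, 7.80 and 8.17 on HD-recovery arrays and 6.83, 7.28 and 8.28 on water-recovery arrays (log2 fold change 0.30, p = 0.017). The ranges coincided, although 16 of 20 HD-recovery arrays lay above the water-recovery median. Ube2d2b had 8.66, 9.32 and 9.97 on HD-recovery arrays and 8.86, 9.11 and 9.36 on water-recovery arrays (log2 fold change 0.24, p = 0.0054), and was more spread on HD-recovery arrays. Ube2f, the Nedd8 E2, had a log2 fold change of 0.21 (p = 0.023), with 17 of 20 HD-recovery arrays above the water-recovery median.

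The other members at this unadjusted p were deubiquitinases. Usp16 had 6.32, 6.85 and 7.11 on HD-recovery arrays and 6.25, 6.65 and 6.92 on water-recovery arrays (log2 fold change 0.18, p = 0.0058), with 18 of 20 above the water-recovery median. Usp30 had 7.02, 7.61 and 8.03 on HD-recovery arrays and 7.04, 7.39 and 7.73 on water-recovery arrays (log2 fold change 0.20, p = 0.0093). Usp39, a spliceosome protein whose protease domain is inactive, had a log2 fold change of 0.18 (p = 0.013), Usp15 of 0.20 (p = 0.019) and Usp8 of 0.08 (p = 0.032). Of the genes that led the comparison at the end of exposure, Ube2k had a log2 fold change of −0.09 (p = 0.64) after recovery and Ube2w of 0.08 (p = 0.69). Other named genes of male germ cells and of ubiquitin-like pathways had small values, with 0.15 for Usp2 (p = 0.11), 0.15 for Ube2d3 (p = 0.32), 0.11 for Usp7 (p = 0.054), 0.07 for Ube2b (p = 0.32), 0.07 for Usp18 (p = 0.26), 0.06 for Usp9x (p = 0.64), −0.07 for Ube2l6 (p = 0.29) and 0.00 for Usp14, Ube2a and Usp26.

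The sperm marker mean was 9.22 ± 0.35 on HD-recovery arrays and 9.02 ± 0.21 on water-recovery arrays, and the leukocyte mean 7.65 ± 0.26 on HD-recovery arrays and 7.72 ± 0.26 on water-recovery arrays. With the sperm mean as a covariate, the log2 fold change of Ube2j1 was 0.18 (q = 0.828), and the other 8 genes named above also had smaller values: 0.07 for Ube2g2, 0.11 for Ube2d2b, 0.09 for Ube2f, 0.13 for Usp16, 0.07 for Usp30, 0.12 for Usp39, 0.09 for Usp15 and 0.06 for Usp8. None passed, and the median of the 67 was 0.01. With the leukocyte mean instead, 4 of the 67 passed (5.97%), all higher, among them Ube2j1 (0.52), Usp15 (0.26) and Usp39 (0.22). Of all probe sets, 0.466% passed, 0.377% higher and 0.089% lower. Without the arrays that stood apart (17 HD-recovery and 16 water-recovery arrays left), 17 of the 67 genes differed at q under 0.05 (25.4%), against 13.1% of all probe sets, with 16 of them higher in HD-recovery arrays (all probe sets, 6.54% higher and 6.58% lower). Ube2g2 (log2 fold change 0.54, q = 0.00034), Ube2j1 (0.67, q = 0.0018), Ube2f (0.36, q = 0.0019), Usp30 (0.29) and Usp2 (0.30) led, and Usp13, which acts on proteins of the endoplasmic reticulum and of autophagy, was lower (−0.13). With Benjamini-Hochberg adjustment 13 passed (19.4%), all higher, against 3.27% of all probe sets higher and 1.53% lower. The HD-recovery arrays left out (replicates 2, 9 and 16) had the lowest sperm marker means of their group, 8.58, 8.62 and 8.70. The water-recovery arrays left out (replicates 12 and 15) had the highest of theirs, 9.48 and 9.45. Leaving them out thus widened the gap in the sperm mean between the groups. The part of this in the counts was not tested.

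**Figure D2:**
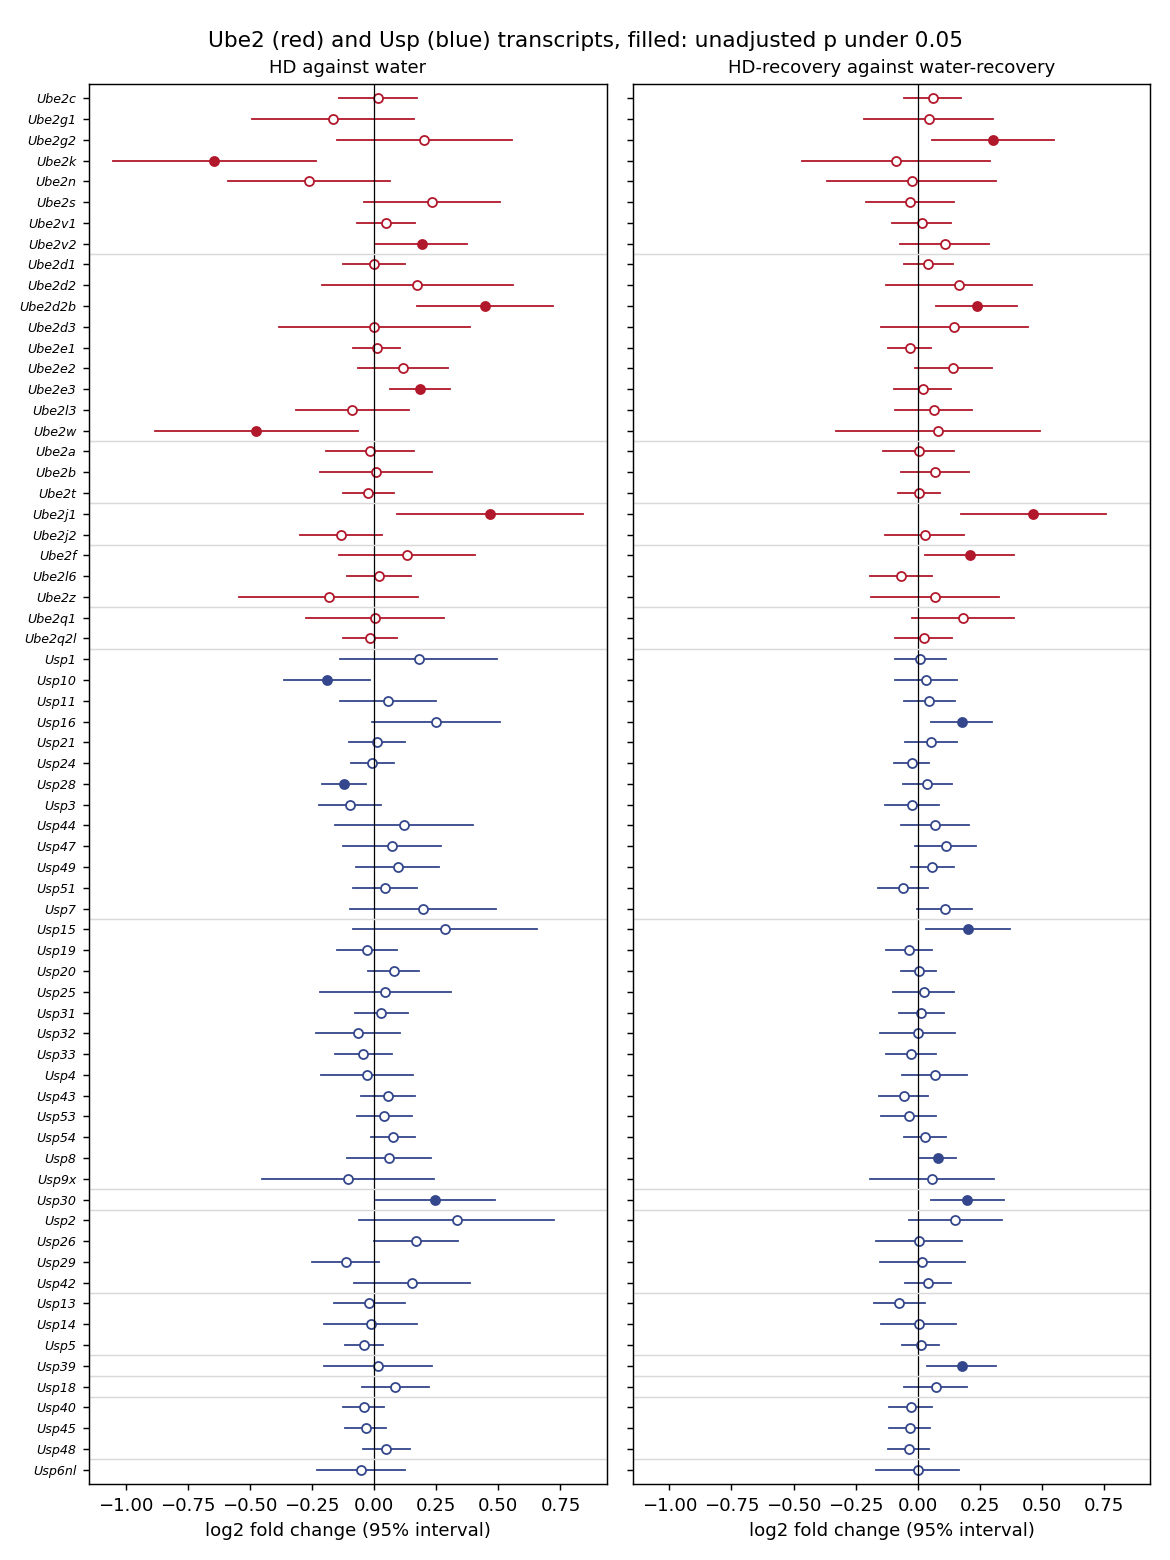
Log2 fold change of each of the 67 genes with its 95% interval, for HD against water (left) and HD-recovery against water-recovery (right), in the order of their roles with the E2s first (red, Ube2; blue, Usp; filled points, unadjusted p under 0.05; grey lines between roles). By the labels as given, Ube2j1 stands at 0.47 in both panels, while Ube2k is at −0.64 on the left and −0.09 on the right; with the labels HD and water exchanged the left panel would be mirrored, with Ube2j1 at −0.47 and Ube2k at 0.64.

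Both exposed groups, and both control groups, can also be set against each other over time, although age, the time of sampling and the array run cannot be told apart from recovery there. These comparisons use the same arrays as those above, so their values are given side by side only. Between HD-recovery and HD arrays no member differed at q under 0.05, against 9 probe sets in all (0.0308%), and the smallest q of the 67 was 0.440. At an unadjusted p under 0.05, none of the 67 had a positive log2 fold change, against 3.9% of all probe sets, and 4 had a negative one, against 3.65%: Ube2d2b (−0.38), Usp30 (−0.28), Ube2s (−0.30) and Ube2j1 (−0.38). Usp28 had 0.09 (p = 0.052). Between water-recovery and water arrays no member and no probe set passed q (0%), with a smallest q of 0.645. At an unadjusted p under 0.05, none of the 67 had a positive log2 fold change, against 2.9% of all probe sets, and 7 had a negative one, against 3.62%. These were Usp30 (−0.24, p = 0.0040), Ube2j1 (−0.38), Usp16 (−0.15), Ube2d2b (−0.17), Usp39 (−0.16), Ube2d2 (−0.33) and Usp29 (−0.17), an imprinted gene. Thus Ube2j1 had medians of 9.01 on HD-recovery arrays and 9.37 on HD arrays, and of 8.68 on water-recovery arrays and 9.09 on water arrays, and the later group had the lower median with and without HD. The sperm marker mean was 9.22 on HD-recovery and 9.37 on HD arrays, and 9.02 on water-recovery and 9.19 on water arrays. With the sperm mean as a covariate, the 67 had a median log2 fold change of −0.02 in HD-recovery against HD, in place of −0.04, and −0.03 in water-recovery against water, in place of −0.06. With the labels HD and water exchanged, none of the 67 differed in HD-recovery arrays against those labelled water (0% of all probe sets), and 3 were lower in water-recovery arrays against those labelled HD, against 2.12% of all probe sets: Ube2j1 (−0.84, q = 0.0026), Ube2d2b (−0.62, q = 0.0070) and Usp30 (−0.48, q = 0.012). Without the arrays that stood apart, and by the labels as given, 26 of the 67 differed between HD-recovery and HD (all probe sets, 43.8%). Of these, 19 were higher (all probe sets, 14.7% higher and 29.1% lower). Ube2w (0.79), Ube2k (0.62) and Ube2z (0.48) were the largest, and Ube2d2b (−0.31) and Usp26 (−0.25) the lowest. None differed between water-recovery and water (all probe sets, 0%).

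Whether the HD effect differed between the end of exposure and the end of recovery was tested directly, as the effect at the end of exposure minus that after recovery. No member and no probe set passed q under 0.05 (0%), and the smallest q of the 67 was 1.00. At an unadjusted p under 0.05, 1 member had a positive difference, against 1.36% of all probe sets, and 2 had a negative one, against 2.02%. They were Ube2e3 (0.17, p = 0.047), Usp28 (−0.16, p = 0.015) and Usp10 (−0.22, p = 0.040). Ube2k had a difference of −0.56 (p = 0.053), Ube2w of −0.55 (p = 0.062) and Ube2j1 of 0.00 (p = 0.99). These values rest on the labelled direction of HD against water. With the labels HD and water exchanged, Ube2j1 had a difference of −0.93 (p = 0.00024, q = 0.0588), Ube2k of 0.73 (p = 0.012) and Ube2w of 0.39 (p = 0.18), and 1 of the 67 passed q, Ube2d2b (−0.68, q = 0.036), against 0.349% of all probe sets. At an unadjusted p under 0.05, 1 member was then positive, against 4.28% of all probe sets, and 11 were negative, against 4.73%. Without the arrays that stood apart, and by the labels as given, the difference passed q in 34 of the 67 (50.7%), against 48.1% of all probe sets. Of the 34, 29 were negative, with Ube2w (−1.14), Ube2k (−1.01) and Usp10 (−0.42) having the smallest p. This fit was not repeated with the labels HD and water exchanged, and its signs and counts rest on the labelled direction. Over all probe sets the split was the other way, with 31.3% higher and 16.8% lower.

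The 67 genes also varied among rats of the same group. With group means removed, their SD over the 77 arrays ran from 0.10 to 0.66 on the log2 scale with a median of 0.25, against a median of 0.21 over all probe sets, and 13 of the 67 were among the 10% of probe sets with the largest SD. Ube2w (0.66), Ube2k (0.64), Ube2d2 (0.56), Ube2d3 (0.56) and Ube2j1 (0.54) varied most, and all of these are E2s. Usp5 (0.10), which takes apart free ubiquitin chains, and Usp24, Usp45, Usp40 and Usp54 (0.11 to 0.12) varied least.

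This variation followed the sperm markers closely in a subset. Over the 77 arrays with group means removed, 25 of the 67 genes had a Pearson correlation of 0.5 or more with the sperm marker mean, against 9.99% of all probe sets, and 1 had −0.5 or less, against 21.7%. The median correlation of the 67 was 0.41, and that of all probe sets −0.27. The genes share each array's scaling, since array medians are nearly equal. Ube2j1 had the highest value, with r = 0.92 and rho = 0.92 (permutation p = 1e-05 for each, the smallest that 100000 permutations can give, and 4.05e-05 and 4.88e-05 when adjusted over all probe sets and 3 marker lists). Ube2g2 had r = 0.92 and rho = 0.85, Usp2 0.89 and 0.85, Usp30 0.85 and 0.81, and Usp44, which guards the mitotic checkpoint, 0.85 and 0.80, with the same permutation p. Small p were common here: at an adjusted p under 0.05, 41 of the 67 correlated positively and 13 negatively with the sperm mean. The share of all probe sets at this level was not counted. With group means removed, 41.9% of the variance of all probe sets lay on 1 shared axis, so these p do not single out a link to sperm RNA. Without the arrays that stood apart, r was 0.91 for Ube2j1, 0.88 for Ube2g2, 0.84 for Usp2, 0.74 for Usp30 and 0.85 for Usp44. Without the 2 arrays farthest from the median of the marker mean, HD replicates 5 and 7, it was 0.93, 0.89, 0.88, 0.82 and 0.85 in the same order of genes. Usp15 (0.80), Ube2s (0.77), Ube2d2b (0.76), Usp1 (0.71), Ube2f (0.69), Usp42 (0.66) and Ube2b (0.65) followed. The lowest were Ube2e1 (r = −0.51, and −0.25 without the arrays that stood apart), Ube2v1 (−0.50), Usp13 (−0.48), Usp43 (−0.44) and Usp31 (−0.43). The count of 25 rested in part on single arrays: it was 11 without the arrays that stood apart and 16 without HD replicates 5 and 7.

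**Figure D3:**
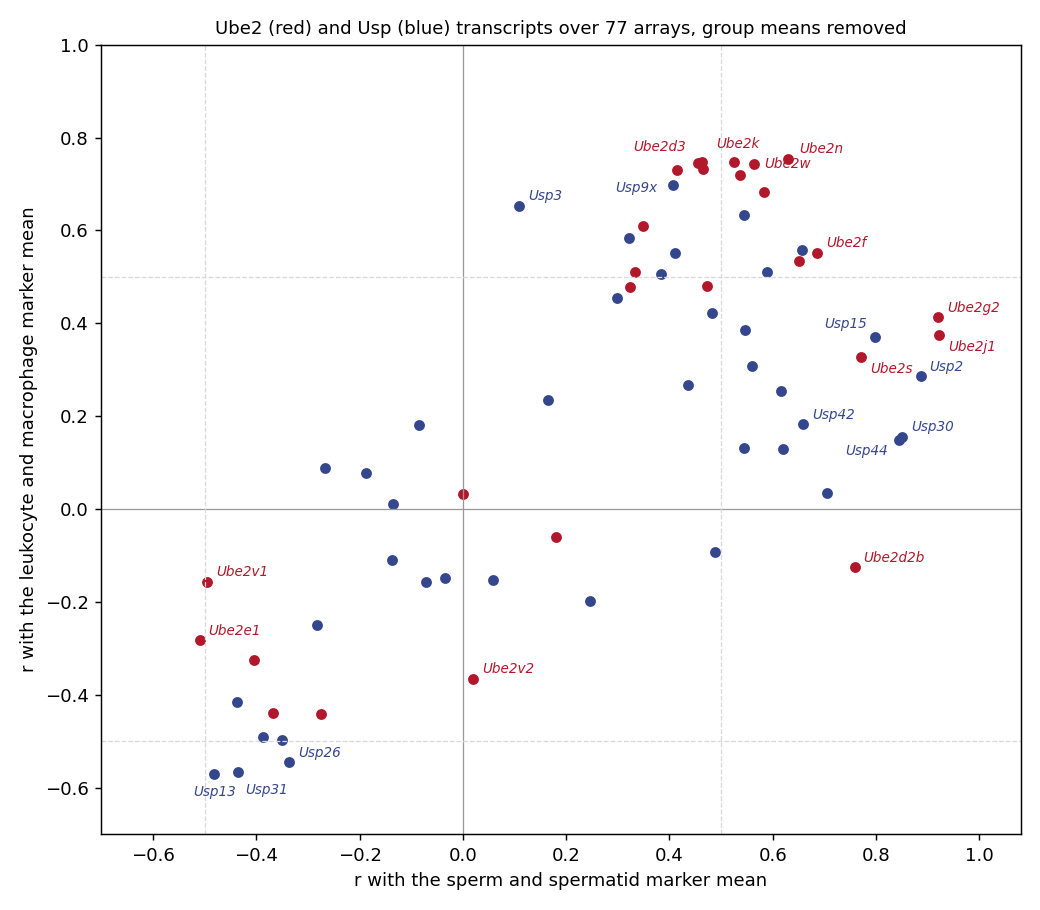
Pearson correlation of each of the 67 genes with the sperm and spermatid marker mean (horizontal) and with the leukocyte and macrophage marker mean (vertical) over 77 arrays with group means removed; dashed lines mark 0.5 and −0.5. Ube2j1 and Ube2g2 lie far to the right at 0.92, and Ube2k, Ube2n, Ube2d3 and Ube2z lie at the top at 0.75.

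Several genes, E2s at their head, followed the leukocyte markers. Of the 67, 21 had a correlation of 0.5 or more with the leukocyte and macrophage mean (13 named Ube2 and 8 named Usp), against 12.6% of all probe sets, and 3 had −0.5 or less, against 16.9%. Of the 21, 10 were also at 0.5 or more with the sperm mean. Ube2n, Ube2d3, Ube2k and Ube2z each had r = 0.75 and Ube2w 0.74, with rho between 0.77 and 0.79 (permutation p = 1e-05, the smallest possible). Such p were common here too, with 34 of the 67 positive and 11 negative at an adjusted p under 0.05, and they do not single out leukocyte RNA. Without the arrays that stood apart r was 0.72 for Ube2n, 0.81 for Ube2d3, 0.74 for Ube2k, 0.80 for Ube2z and 0.76 for Ube2w. Usp13 and Usp31 (both −0.57) and Usp26 (−0.55) had the lowest values. Ube2d2b, with 0.76 for the sperm mean, had −0.12 for the leukocyte mean. The marker means were themselves correlated (r = 0.30), and Ube2n (0.63), Ube2w (0.56) and Ube2k (0.52) also followed the sperm mean. Ube2n and Ube2w had correlations of 0.72 and 0.71 with the erythroid mean, the highest of the 67. All 5 of these E2s are expressed in most cells of the body, and the array does not say which cells their RNA came from.

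**Figure D4:**
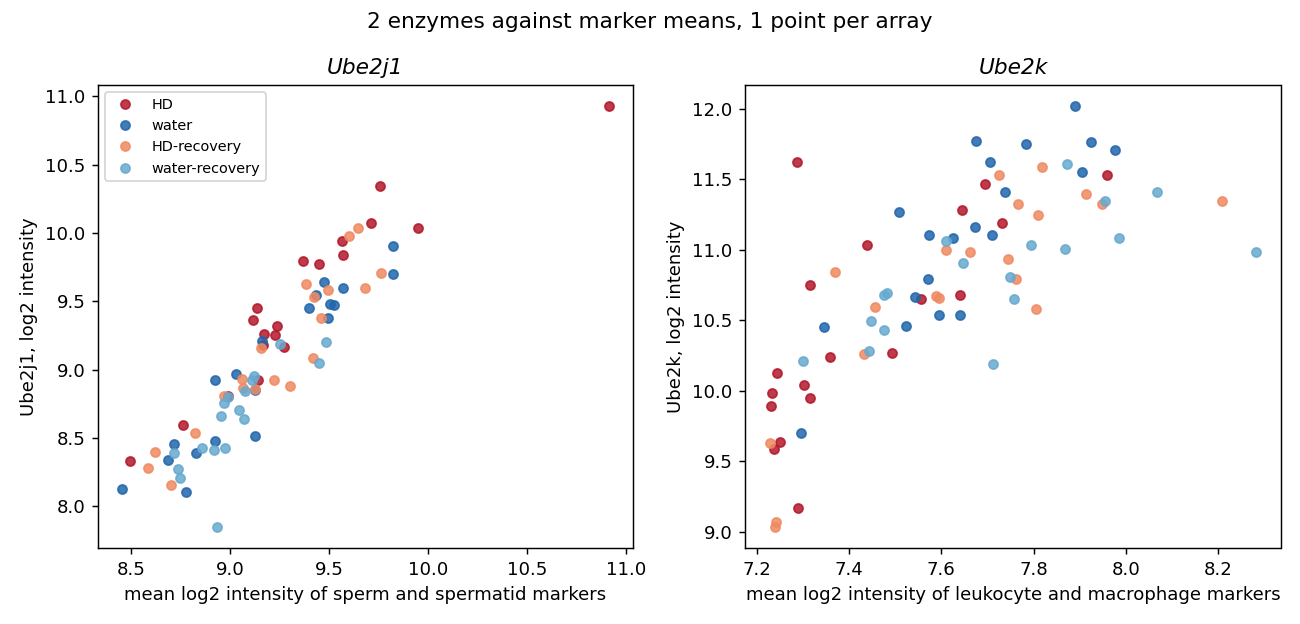
Log2 intensity of Ube2j1 against the sperm and spermatid marker mean, and of Ube2k against the leukocyte and macrophage marker mean, 1 point per array, by group in the order HD, water, HD-recovery and water-recovery. With group means removed, Ube2j1 had r = 0.92 with the sperm mean and Ube2k r = 0.75 with the leukocyte mean.

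Promoters were compared because germ cell genes of the spermatid stage are often driven by the factor Crem, which binds cyclic AMP response elements with the core TGACGT. This motif was chosen after the correlations were seen, and its count is a description. RefSeq (GRCr8) gave the 250 bases before a transcript start of 55 of the 67 genes, the first listed for each. The core, on either strand, was in 6 of the 55 (10.9%) and in 6.95% of 33469 promoters. All 6 were among the 21 with a correlation of 0.5 or more with the sperm mean (28.6%), and none among the other 34. This split uses all 77 arrays. Without the arrays that stood apart, r was 0.42 for Ube2b, 0.42 for Ube2d2 and 0.40 for Usp8. Without HD replicates 5 and 7, it was 0.52, 0.46 and 0.39 in the same order. Ube2j1, Ube2g2 and Ube2s stayed above 0.5 both times. The full element TGACGTCA was in none of the 55 and in 1.59% of all promoters. A match names letters only, and no binding was measured. The genes with a match are shown because Ube2j1 and Ube2g2 head the correlation with the sperm markers. The capitals mark the core or its reverse complement ACGTCA, and each run reads towards that transcript start of its gene. The windows are chr5:52218557-52218806 (plus strand) for Ube2j1, chr20:11005061-11005310 (minus strand) for Ube2g2, chr1:78057494-78057553 (plus strand) for Ube2s, chr10:36763944-36764003 (minus strand) for Ube2b, chr3:134415466-134415525 (plus strand) for Usp8 and chr18:27638170-27638229 (plus strand) for Ube2d2, the last 4 cut to 60 bases around the match.
Ube2j1: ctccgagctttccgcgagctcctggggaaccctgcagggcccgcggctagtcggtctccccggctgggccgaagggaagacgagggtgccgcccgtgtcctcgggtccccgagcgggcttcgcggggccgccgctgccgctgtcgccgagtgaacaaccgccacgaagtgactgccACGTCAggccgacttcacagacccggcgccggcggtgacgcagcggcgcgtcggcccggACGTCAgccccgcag
Ube2g2: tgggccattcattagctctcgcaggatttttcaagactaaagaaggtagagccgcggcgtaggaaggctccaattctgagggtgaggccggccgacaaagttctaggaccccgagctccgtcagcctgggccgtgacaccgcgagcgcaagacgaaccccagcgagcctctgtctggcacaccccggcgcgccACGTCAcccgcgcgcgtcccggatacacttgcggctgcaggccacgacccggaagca
Ube2s: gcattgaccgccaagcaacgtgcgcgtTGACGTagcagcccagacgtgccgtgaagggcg
Ube2b: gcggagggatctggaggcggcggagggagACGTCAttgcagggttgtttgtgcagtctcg
Usp8: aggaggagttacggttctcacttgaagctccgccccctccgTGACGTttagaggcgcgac
Ube2d2: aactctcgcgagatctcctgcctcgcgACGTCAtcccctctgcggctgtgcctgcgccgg
Ube2j1 held the core at 2 places, the nearer of them beginning 15 bases before its start. The other genes held it once, beginning 57 bases before the start in Ube2g2, 138 in Ube2s and 202 in Ube2d2. In Usp8 (19 bases) and Ube2b (31 bases) it lay before a transcript start within the gene, not before the start of the gene. RefSeq places Usp8 at chr3:134413832-134463040 and Ube2b at chr10:36749365-36764335, around their windows.

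For 3 genes the array has several probe sets, and these did not always give the same answer. The brightest probe set of Ube2n correlated at 0.99 and 0.74 with its other ones, and all had negative log2 fold changes in HD against water (−0.26, −0.23 and −0.10). Those of Usp13 correlated at 0.39. The brightest of Usp54 had a log2 fold change of 0.08 in HD against water and the dimmer one −0.23 (p = 0.0045), with a correlation of −0.09 between them, so the direction of Usp54 depended on the probe set.

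The other genes of the pathway showed as little at q under 0.05, with no gene of any list below passing in any of the comparisons. Of 9 E1 enzymes, none reached an unadjusted p of 0.05 in HD against water or in HD-recovery against water-recovery. Of all probe sets, 3.4% were positive and 4.91% negative at this level in HD against water, and 2.86% and 1.65% after recovery. Of 8 ubiquitin and ubiquitin-like modifiers, 1 did so in HD against water (Ufm1, −0.19) and 1 after recovery (Sumo3, 0.15, with 18 of 20 HD-recovery arrays above the water-recovery median). Of 21 deubiquitinases of other families, 2 had a positive log2 fold change at this level in HD against water, Uchl5, a proteasome subunit (0.39), and Uchl1 (0.20), known from spermatogonia. After recovery 3 did: Otub2 (0.30), Uchl5 (0.22) and Uchl1 (0.15). Of 33 ubiquitin ligases of male germ cells, 3 were positive and 2 negative in HD against water and 4 were positive after recovery. Marchf11 had 0.49 (p = 0.0026, q = 0.162) and Marchf10, which is found in spermatids of the rat, 0.54 in HD against water and 0.43 in HD-recovery against water-recovery (p = 0.00074, q = 0.720). Klhl10, a substrate adaptor without which male mice are infertile, had −0.61 and Spop −0.23 in HD against water, and Klhl10 had −0.06 after recovery.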

How the data were processed

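The authors deposited 1 table with a log2 value per probe set on each of 77 Affymetrix whole-transcript rat arrays. Its log2 scale was taken from the range of the values, and the steps of normalization were not stated in the sources used here. Gene symbols came from the platform annotation, locations and promoters from RefSeq (GRCr8). Groups followed the labels, and the direction of the labels relative to the published list is discussed beside the first signed value. As in the study's methods, limma was used to set each group given HD against the control killed at the same time (version 3.58.1, in R 4.3.3), over all 29214 probe sets. p-values became q-values by Storey's method, with a threshold of 0.05. The code of the fit was run on simulated data in which probe sets varied independently and no array was made to stand apart. That run cannot show how the q-values behave on these arrays, where probe sets vary together. Both comparisons over time and the difference of HD effects were fitted in the same way. No column of values was left unused (0). The number of arrays limits the precision.

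The members and the marker and pathway lists were chosen with earlier results of these data known. The genes named are those with the smallest p or the largest log2 fold changes in each comparison, the largest and smallest SD, the highest and lowest correlation with the sperm markers, and a set of germ cell and ubiquitin-like genes given whatever their values. Correlations over arrays used deviations from the group means and 100000 permutations of the arrays, adjusted by Benjamini-Hochberg over all probe sets and 3 marker lists (sperm and spermatid, leukocyte and macrophage, erythroid). Epididymal epithelium markers (14 measured) and Sertoli cell markers (12 measured) were averaged and fitted but not used for correlations. An array stood apart if its median correlation with its group lay more than 1.5 interquartile ranges below the lower quartile. Alternatives were another scaling, array weights, all groups in 1 fit, Benjamini-Hochberg adjustment, leaving out the dimmest 25% of probe sets, averaging probe sets, leaving out each array or those that stood apart, and, chosen after seeing the data, marker means as covariates, an exchange of the labels HD and water, and the combination of leaving out arrays with Benjamini-Hochberg adjustment. Rats were housed several to a cage, and which rats shared a cage or an array run was not stated, so p-values measure the spread between arrays. Probe sets that carry Ube2m or Usp36 together with another gene were left out.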

Additional observations from a re-analysis of the deposited data

How the results depend on the processing

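The count of members at q under 0.05, which was 0 in all 5 comparisons, stayed 0 after centring of array medians, quantile normalization, Benjamini-Hochberg adjustment, removal of the dimmest 25% of probe sets and averaging of probe sets, and whenever 1 array was left out (lowest 0, highest 0 in each comparison). It changed with the settings that follow. For HD against water it was 17 with array weights (all probe sets, 17.7%), 10 without the arrays that stood apart (14.9%; 7 and 7.59% with Benjamini-Hochberg adjustment), 1 with all groups in 1 fit (Ube2d2b; 0.756%), and 4 with the sperm (4.14%) or the leukocyte marker mean (1.81%) as a covariate. For HD-recovery against water-recovery it was 5 with weights (1.8%), 17 without those arrays (13.1%; 13 and 4.8%) and 4 with the leukocyte covariate (0.466%). For HD-recovery against HD it was 28 with weights (44.5%) and 26 without those arrays (43.8%; 16 and 22.2%). For water-recovery against water it was 6 with the leukocyte covariate (2.88%) and 3 with the labels HD and water exchanged (2.12%). For the difference of HD effects it was 29 with weights (33.7%), 34 without those arrays (48.1%; 23 and 23.2%) and 1 with the labels exchanged (0.349%). Ube2w in HD against water turned its sign with the leukocyte covariate, to 0.12 (main value −0.47). Of the correlations with the sperm mean, 25 at 0.5 or more became 11 without the arrays that stood apart, 16 without HD replicates 5 and 7, and 15 with Spearman's rho, and the 1 at −0.5 or less became 0 without those arrays and 0 with rho. The cause of these changes was not tested. In fits that left arrays out, q lay below p for many members (26 of 67 in HD against water), because Storey's estimate of the share of unaltered probe sets was low.

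Rats with the same replicate number in different groups are different animals. With the replicate number as a block, 0 members passed in each comparison, and same-numbered arrays did not deviate together (median correlation 0.03, 0.04, 0.19 and −0.02 in the 4 pairs of groups, best with the own number in 2, 4, 2 and 0 arrays), so the numbers do not pair the samples.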
